A study of Mus musculus with 4 samples.

Results

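The simple epithelial keratins Krt7, Krt8, Krt18, Krt19, Krt20 and Krt23 were followed in 2 mouse keratinocyte lines, MK2 and MK1. These 6 genes were chosen by name from the 23420 gene rows of the deposited count table, and all 6 were found. Each line was sampled as 2 biological replicate cultures, total RNA was extracted from the cells with a Direct-zol kit, and libraries were made with the Illumina TruSeq RNA kit. The series belongs to work on p63, a transcription factor needed for the epidermis to form and persist. The labels describe both lines only as mouse keratinocytes and give no genotype, strain, sex, passage or treatment. Each group is therefore a single line, so the tests weigh differences against the variation among cultures and not against that among keratinocyte lines.

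Keratins are intermediate filament proteins, and each filament needs a type I and a type II keratin in equal amounts. Basal cells of the epidermis pair Krt5 (type II) with Krt14 (type I), whereas single-layered epithelia such as those of gut, liver and ducts pair Krt8 or Krt7 (type II) with Krt18, Krt19, Krt20 or Krt23 (type I). Krt8 and Krt18 are the earliest keratins of the embryo and are also found in the periderm, the transient outer layer of fetal skin, and in Merkel cells, the touch receptors of the epidermis. A keratin without a partner is generally unstable as a protein. RNA counts do not show protein.

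On mm10 the type II members Krt7 (chromosome 15, 101412403 to 101427806, plus strand, 9 exons) and Krt8 (chromosome 15, 101996711 to 102004342, minus strand, 9 exons) lie at the 2 sides of Krt5. The type I gene Krt18 (chromosome 15, 102028216 to 102032026, plus strand, 7 exons) is the only type I keratin of the table on that chromosome. It starts 23.9 kb from the start of Krt8, in the opposite orientation. The other type I members are on chromosome 11: Krt20 (99428403 to 99438153, 8 exons), Krt23 (99477973 to 99493110, 8 exons) and Krt19 (100140811 to 100145919, 6 exons), all on the minus strand.

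The sequences before the starts of the 4 members with the most reads are shown because these genes differed together between the lines. They are 250 bases each, from RefSeq on GRCm38.p6, read 5′ to 3′ on the strand of the gene. Capitals mark matches to a GC box (GGGCGG), an AP-2 motif (GCCNNNGGC) or a TATA box (TATAAA) on either strand. RefSeq starts were at the same base as the starts in the deposited table for these 4 genes.
Krt7, chr15:101412153-101412402, plus strand: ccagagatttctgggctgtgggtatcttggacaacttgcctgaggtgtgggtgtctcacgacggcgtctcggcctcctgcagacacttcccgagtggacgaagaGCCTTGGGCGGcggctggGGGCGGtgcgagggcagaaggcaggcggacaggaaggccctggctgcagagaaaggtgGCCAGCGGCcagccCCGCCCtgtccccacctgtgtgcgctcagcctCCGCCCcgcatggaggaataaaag
Krt8, chr15:102004343-102004592, minus strand: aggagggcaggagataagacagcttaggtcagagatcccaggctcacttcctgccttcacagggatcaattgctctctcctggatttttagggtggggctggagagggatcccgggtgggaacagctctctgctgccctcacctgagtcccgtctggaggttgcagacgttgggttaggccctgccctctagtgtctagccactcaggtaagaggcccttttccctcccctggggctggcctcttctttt
Krt18, chr15:102027966-102028215, plus strand: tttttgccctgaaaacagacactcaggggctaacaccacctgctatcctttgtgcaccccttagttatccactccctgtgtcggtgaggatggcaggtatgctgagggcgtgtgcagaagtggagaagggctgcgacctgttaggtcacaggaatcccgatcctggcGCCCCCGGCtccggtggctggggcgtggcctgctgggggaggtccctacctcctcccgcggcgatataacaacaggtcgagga
Krt20, chr11:99438154-99438403, minus strand: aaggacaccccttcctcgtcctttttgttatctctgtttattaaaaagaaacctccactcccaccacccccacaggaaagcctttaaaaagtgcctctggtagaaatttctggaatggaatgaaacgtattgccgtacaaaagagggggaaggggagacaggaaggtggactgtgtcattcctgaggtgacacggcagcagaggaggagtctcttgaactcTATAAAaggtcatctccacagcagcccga

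Krt7 had 4 GC boxes, a motif present in 32.7% of 32851 such windows, and 2 AP-2 matches, one of which runs into a GC box. Krt18 had 1 AP-2 match, and 13.7% of windows had at least 1. Krt20 had a TATA box 29 to 24 bases before its start, and 12.4% of windows had one. None of these motifs was in the Krt8 window, where TATAAA runs from the last base before the annotated start to the fifth base after it. AP-1 (TGANTCA), ETS (CCGGAA) and p53-family half-site motifs, held by 6.75%, 12.0% and 1.63% of windows, had no match in the 4 windows. GC content was 66.0% in Krt7, 60.4% in Krt18, 58.0% in Krt8 and 48.0% in Krt20, beside a median of 52.4% over all windows. The 4 windows thus had no searched motif in common.

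Libraries held 25237391 to 28601806 counts in MK2 and 26693849 to 30261111 counts in MK1. Levels are given as CPM, which scales counts to TMM-adjusted library sizes, or as TPM, which also divides by gene length, where genes are compared with each other. Krt5, Krt14 and Trp63, the gene of p63, stood at 7943, 8387 and 261 CPM in MK2 and at 8032, 8763 and 217 CPM in MK1, so that these defining markers of basal keratinocytes were abundant in both lines. Among 12479 genes tested with edgeR's quasi-likelihood test (Benjamini-Hochberg adjustment, adjusted p under 0.05), 54.6% differed between the lines, which is what called means here.

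Of the 6 simple epithelial keratins, 4 passed the low-count filter. All 4 fell in MK2, beside 28.6% of all tested genes that fell and 25.9% that rose. All 4 also fell by more than 2-fold in glmTreat, edgeR's test against a minimum change, beside 10.1% of tested genes that did so, 3.25% that rose and 13.3% in either direction. For all 4 the MK2 libraries lay below the MK1 libraries, as they did for 40.9% of tested genes, and 80.5% had no overlap in either direction. Because only genes with enough counts in at least 1 line were tested, these counts leave out Krt19 and Krt23. Krt8 had 9.85 and 10.02 CPM in the MK2 libraries, against 1394 and 1372 CPM in the MK1 libraries. It fell by 7.12 ± 0.13 on the log2 scale (SE), a level 139-fold lower in MK2 (edgeR, quasi-likelihood, Benjamini-Hochberg adjusted p = 2.00e-06). By p-value it ranked number 2 of all tested genes. In bulk RNA, fewer cells with a keratin and less of its RNA per cell cannot be told apart.

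Krt18, the usual partner of Krt8, had 1.91 and 1.94 CPM in the MK2 libraries, against 255 and 271 CPM in the MK1 libraries. It fell by 7.09 ± 0.14 on the log2 scale, 136-fold (edgeR adjusted p = 2.29e-06). The 2 MK2 cultures were alike for both genes, and no MK2 library came near an MK1 library.

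Krt7, a type II keratin of ducts and of bladder and other simple or transitional epithelia, had 19.99 and 14.5 CPM in the MK2 libraries, against 2055 and 2157 CPM in the MK1 libraries. It fell by 6.93 ± 0.20 on the log2 scale, 122-fold (edgeR adjusted p = 5.60e-06). Krt7 was the most abundant member in every library. By TPM it ranked 5869 of all gene rows in MK2 and 51 in MK1.

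Krt20, a type I keratin of intestine, of bladder umbrella cells and of Merkel cells, had 3.62 and 2.79 CPM in the MK2 libraries, against 78.7 and 123 CPM in the MK1 libraries. It fell by 4.98 ± 0.27 on the log2 scale, 31.6-fold (edgeR adjusted p = 3.84e-05). Its 2 MK1 cultures were farther apart than those of the other 3 members, and still far above both MK2 cultures.

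The other 2 members were near or at 0 in both lines. Krt19, the smallest keratin and one that lacks most of the tail domain, had 8 and 7 counts in the MK2 libraries and 10 and 15 counts in the MK1 libraries, or 0.318 and 0.247 CPM in MK2 and 0.329 and 0.559 CPM in MK1. It was below the count filter. With no low-count filter its log2 change was -0.64 ± 0.55 (edgeR adjusted p = 0.395), so a difference was not detectable at this depth. Krt23 had 0 counts in all 4 libraries, which allows at most 3 counts, or 0.0987 to 0.119 CPM, in a library.

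**Figure D1:**
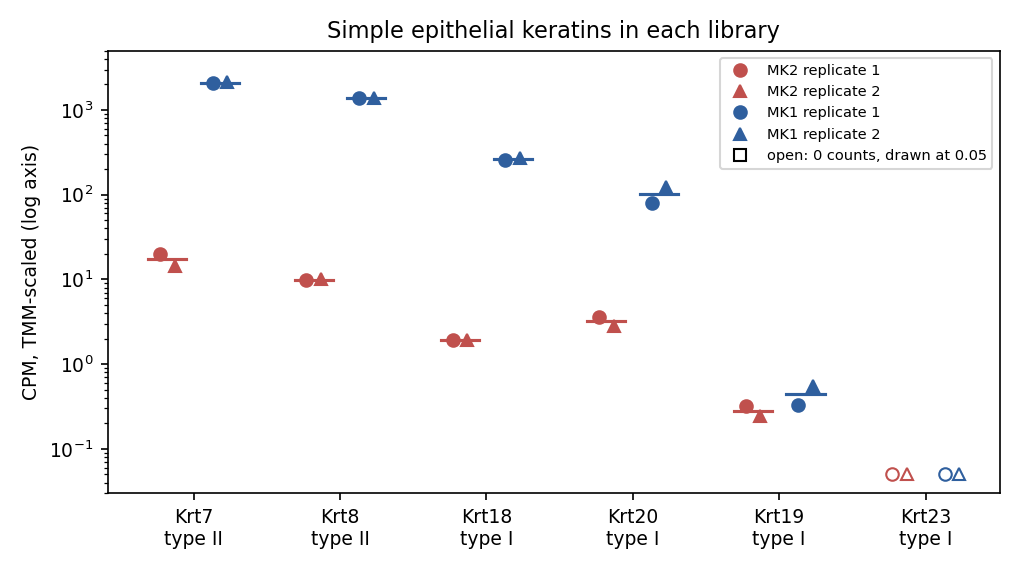
CPM of the 6 keratins in each library on a log axis, MK2 to the left of MK1 for each gene, with bars at the mean of the 2 cultures; open symbols are libraries with 0 counts, drawn at 0.05. Krt7, Krt8, Krt18 and Krt20 are between 1.91 and 19.99 CPM in MK2 and between 78.7 and 2157 CPM in MK1, while Krt19 stays below 1 CPM and Krt23 at 0 in both lines.

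The falls were large among all genes but not the largest. A total of 177 tested genes had a more negative fitted change than Krt8, 114 of them with 0 counts in both MK2 libraries. The median change was -7.01 over the 4 tested members and -0.01 over all tested genes. Every one of 12 alternatives in scaling, filter, tool, pairing or libraries kept the call of all 4 members. The changes of Krt8 and Krt18 stayed between -7.18 and -7.05, those of Krt7 between -7.17 and -6.72, and those of Krt20 between -5.27 and -4.63, with a highest adjusted p of 5.08e-04.

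**Figure D2:**
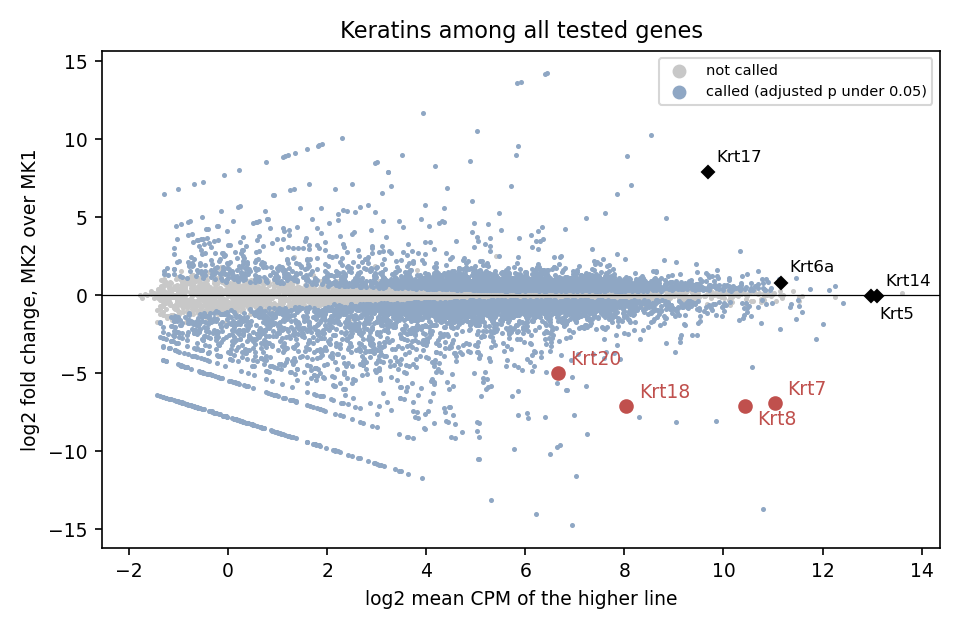
Log2 fold change of MK2 over MK1 against the log2 mean CPM of the higher line for all 12479 tested genes; blue-grey points passed the edgeR test, red circles are the 4 tested simple epithelial keratins and black diamonds 4 other keratins. Krt7 and Krt8 stand far below 0 among abundant genes, Krt17 stands as far above, and Krt5 and Krt14 lie near 0.

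Krt8 and Krt18 fell by similar factors. Per length, the ratio of Krt18 to Krt8 (TPM over TPM) was 0.250 and 0.250 in the MK2 libraries and 0.236 and 0.254 in the MK1 libraries, so that both MK2 values lay between those of the MK1 cultures. The mean log2 ratio, with 0.5 added to each count, was -1.99 in MK2 and -2.03 in MK1, a difference of 0.04 (exact permutation test over the 4 libraries, two-sided, p = 1). With 2 libraries against 2 this test cannot go below 0.333. The difference was below the SD of 0.08 between the MK1 cultures. Reads of the Krt8 gene and its annotated pseudogene Krt8-ps on chromosome 7 may be shared. Krt8 also overlaps 131 bases of Gm36026, annotated as a lincRNA on the opposite strand, a gene with no row in the table. Counts were made with no strand option in the header's command.

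Krt7 kept its place above Krt8. The ratio of Krt7 to Krt8 per length was 2.31 and 1.65 in the MK2 libraries and 1.68 and 1.79 in the MK1 libraries, with ranges that overlap (log2 difference 0.17, exact permutation test, two-sided, p = 1). Krt20 departed from both. Its ratio to Krt7 was 0.149 and 0.158 in the MK2 libraries, against 0.0315 and 0.0468 in the MK1 libraries, a log2 difference of 2.00. Against Krt8 the log2 difference was 2.17. The libraries of the lines did not overlap in either ratio, and p was 0.333 in both exact permutation tests, the smallest that 2 against 2 libraries can give (0.667 after Benjamini-Hochberg adjustment over the 4 ratios tested). The shift of Krt20 against both type II genes was larger than the spread between cultures, and the exact permutation test cannot reach the threshold with 4 libraries.

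The type II members were in excess over the type I members in both lines. Krt7 and Krt8 together had 36.5 and 29.1 TPM in the MK2 libraries, against 4377 and 4386 TPM in the MK1 libraries. Krt18, Krt19, Krt20 and Krt23 together had 6.998 and 5.96 TPM in the MK2 libraries, against 473 and 533 TPM in the MK1 libraries. The type I to type II ratio over the members was 0.192 and 0.205 in MK2 and 0.108 and 0.121 in MK1.

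In the whole keratin pool the members had a much smaller share in MK2. Over all 52 type I and type II keratin rows, the 6 genes made up 0.193% and 0.185% of keratin TPM in the MK2 libraries, against 19.3% and 19.7% in the MK1 libraries. Krt7 and Krt8 were 0.356% and 0.341% of type II keratin TPM in MK2 and 32.8% and 32.9% in MK1. The type I members were 0.0569% and 0.0572% of type I keratin TPM in MK2 and 4.02% and 4.57% in MK1. In relation to the basal keratin Krt5, Krt7 stood at 0.311% and 0.286% in MK2 and at 35.7% and 36.7% in MK1.

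Type I keratin TPM exceeded type II keratin TPM in MK2, and the order was the opposite in MK1. The ratio of all type I to all type II keratins was 1.201 and 1.22 in the MK2 libraries and 0.882 and 0.874 in the MK1 libraries. Without the 6 members the ratio was 1.21 and 1.22 in MK2 and 1.26 and 1.24 in MK1. All keratin rows together took 2.26% and 1.90% of TPM in MK2 and 2.51% and 2.50% in MK1, and without the members 2.25% and 1.89% in MK2 and 2.03% and 2.01% in MK1.

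**Figure D3:**
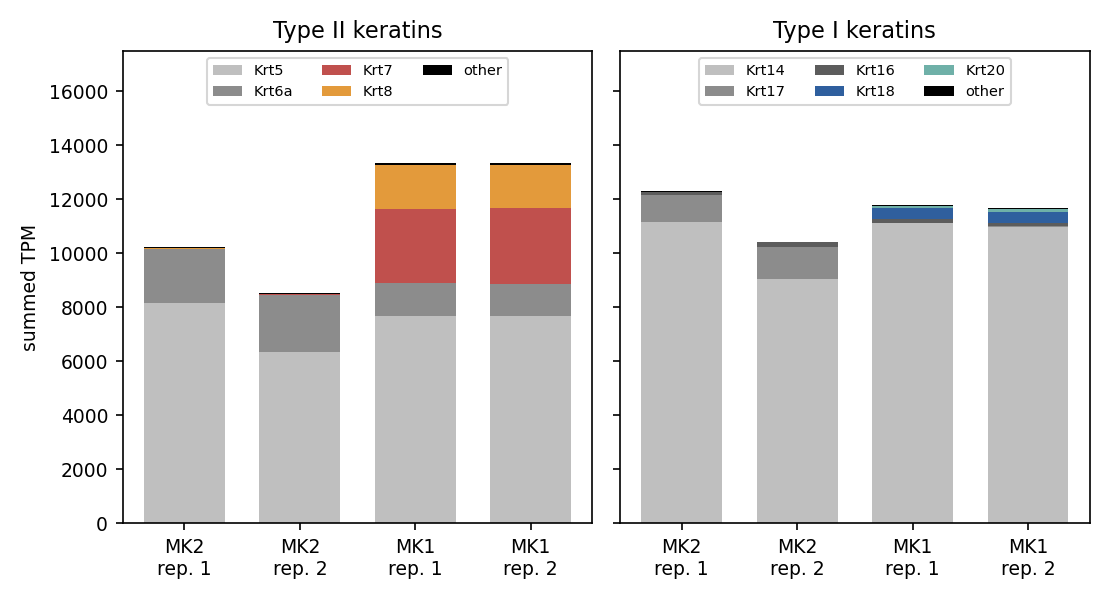
Summed TPM of type II keratins (left) and type I keratins (right) in each library, MK2 libraries first, stacked by gene, with all other keratins of the type in black. Krt7 and Krt8 form 32.8% and 32.9% of the type II bar in the MK1 libraries and under 1% in MK2, where Krt17 and a larger Krt6a segment are seen.

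By TPM, the keratins of MK2 ran in the order Krt14, Krt5, Krt6a, Krt17, Krt16, Krt80, Krt7, Krt15 and Krt8, and those of MK1 in the order Krt14, Krt5, Krt7, Krt8, Krt6a, Krt18, Krt16 and Krt20. In MK2 the replicates of Krt15 were at 32.7 and 0.284 TPM and spanned both neighbours in that order. In MK1, Krt16 (178 and 123 TPM) and Krt20 (86.3 and 132 TPM) overlapped, and the other neighbours named for MK1 did not. Of the 46 other keratin rows, 11 were tested: 4 rose (Krt17, Krt6a, Krt42 and Krt10), 0 fell in edgeR or in DESeq2, also at an unadjusted p under 0.05, and 7 were not called. Among these 7, Krt15 and Krt32 passed as lower once MK2 replicate 1 was dropped (log2 change -4.20 and -4.26), Krt32 also with the crossed replicate block (-1.39), and Krt16 once MK2 replicate 2 was dropped (-0.70, edgeR adjusted p = 0.0186). Krt15 passed as higher without MK2 replicate 2 (2.59), and Krt6b without MK2 replicate 1 (1.13, adjusted p = 0.0447). Krt17, a type I keratin of wounded and hyperproliferative epidermis, had 755 and 901 CPM in the MK2 libraries, against 3.65 and 3.31 CPM in the MK1 libraries, a log2 change of 7.89 (edgeR adjusted p = 2.94e-06). Krt6a, a type II keratin of the same settings, had 2211 and 2397 CPM in MK2, against 1293 and 1327 CPM in MK1 (log2 change 0.81, edgeR adjusted p = 9.42e-04), and may share reads with Krt6b. The low-level Krt42 and Krt10 were not called in every setting: the call of Krt42 ended without MK1 replicate 1 (adjusted p = 0.102), and that of Krt10 without MK1 replicate 1 (0.118), MK1 replicate 2 (0.0978) or MK2 replicate 1 (0.0751) and in DESeq2 (0.0536).

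Genes beside the members had no common direction. The nearest expressed rows to Krt8 and Krt18 were Krt5, Krt6a and Krt6b on one side and Eif4b, Tenc1 and Spryd3 on the other. Krt5 stood at 7943 CPM in MK2 and 8032 CPM in MK1 (edgeR adjusted p = 0.925), and Eif4b, which encodes a translation initiation factor and lies 41.7 kb from Krt18, at 689 CPM in MK2 and 609 CPM in MK1 (adjusted p = 0.191). Tenc1, which encodes a tensin, had 3.78 CPM in MK2 and 14.1 CPM in MK1 and fell by 1.90 on the log2 scale (edgeR adjusted p = 0.00106). Within 500 kb of Krt8 and Krt18, 2 of 23 other tested genes rose, 5 fell and 16 were not called, with a median change of -0.07 and a lowest of -1.90. Within 500 kb of Krt7, a stretch that shares genes with the last, 2 of 12 rose and 4 fell, with a median of -0.04. The lowest there was Scn8a, a sodium channel gene named after its value was seen, at a fitted -7.45. Krt80, the keratin nearest to Krt7 among rows at 1 TPM or more in a line, had 51.8 CPM in MK2 and 59.7 CPM in MK1 (edgeR adjusted p = 0.199).

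Around Krt20, 4 of 6 other tested genes rose and 1 fell. Krt10 stood 39.04 kb away at 4.07 CPM in MK2 and 2.24 CPM in MK1. Ccr7, a chemokine receptor of lymphocytes, had 0 CPM in MK2 and 0.975 CPM in MK1. The nearest expressed rows to Krt19 were Krt15 at 4.86 kb on one side and Krt14 at 57.2 kb on the other. Krt14 was not called (edgeR adjusted p = 0.681). Over whole chromosomes the medians were -0.08 for chromosome 15 and 0.07 for chromosome 11.

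**Figure D4:**
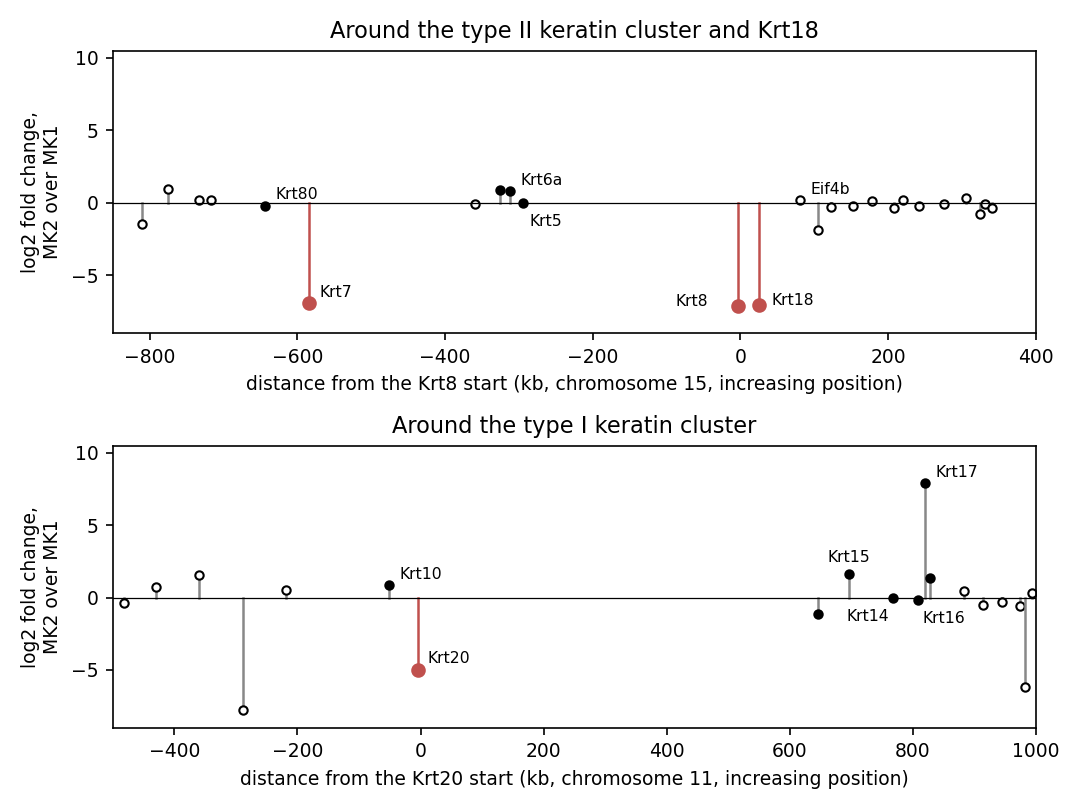
Log2 fold change of MK2 over MK1 for every tested gene by distance in kb from the start of Krt8 (top) and of Krt20 (bottom); red marks simple epithelial keratins, filled black other keratins, open circles other genes. Krt7, Krt8 and Krt18 stand at -6.93, -7.12 and -7.09 with Krt5 at -0.02 between them, and Krt20 at -4.98 is on the chromosome on which Krt17 is at 7.89.

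Genes listed as transcription factors of simple epithelia or of Krt8 and Krt18 went in both directions. Of 20 tested out of 26, 5 rose, 8 fell and 7 were not called (median -0.19). The 4 most abundant called genes were Ets2, Esrp1, Klf5 and Jun. Ets2, an ETS factor, had 217 and 221 CPM in MK2, against 382 and 391 CPM in MK1, and fell by 0.82 (edgeR adjusted p = 7.67e-04). Esrp1, an epithelial splicing regulator and not a transcription factor, rose by 0.97 (adjusted p = 4.63e-04). The fall of Klf5 ended without MK1 replicate 1 (adjusted p = 0.130), and the rise of Jun without MK1 replicate 1 (0.0797), MK1 replicate 2 (0.177) or MK2 replicate 1 (0.0804).

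In glmTreat, 4 genes of that list fell by more than 2-fold and 1 rose. The one that rose, Gata3, had 7.43 and 9.74 CPM in MK2, against 2.57 and 1.71 CPM in MK1 (log2 change 2.00, edgeR adjusted p = 0.00113). Of those that fell, Gata6, Ehf and Elf3 are given here, chosen after their values were seen. Gata6, a factor of endoderm and of the upper hair follicle, had 1 count in MK2, against 12.3 and 9.46 CPM in MK1 (588-fold higher in MK1, 95% counting interval 105 to 23262). Ehf, an epithelial ETS factor, had 2 counts in MK2, against 7.204 and 2.83 CPM in MK1 (138-fold higher in MK1, interval 37.8 to 1144). Elf3, another epithelial ETS factor, had 1.15 and 2.05 CPM in MK2, against 24.0 and 24.2 CPM in MK1, and fell by 3.90 (edgeR adjusted p = 7.63e-05). Counting intervals cover counting error only. Cdx2, Elf5, Foxa2 and Sox17 had 0 counts in all libraries.

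Most of the tested genes listed as surface and junction genes of simple epithelia fell. Of 18 tested out of 24, 13 fell, beside 28.6% of all tested genes, and 5 were not called (median -0.95). Of the tested genes in the list, 0 rose in edgeR or in DESeq2, also at an unadjusted p under 0.05. Cldn7, a claudin below the count filter and chosen after its values were seen, ran the other way, with 9 and 20 counts in MK2, against 1 and 0 counts in MK1. With no low-count filter it was higher in MK2 (edgeR adjusted p = 0.00120), 31.0-fold by its counts (95% counting interval 5.14 to 1267). Cldn6, a claudin also chosen after its values were seen, had 0 counts in both MK2 libraries, against 119 and 128 CPM in MK1. With 3 counts over both MK2 libraries taken as the limit, its level was at least 2199-fold lower in MK2. Cldn4, a tight-junction claudin, had 58.9 and 186 CPM in MK2, against 827 and 588 CPM in MK1, a log2 change of -2.53 (edgeR adjusted p = 0.00518). Cdh1, which encodes E-cadherin, had 340 and 393 CPM in MK2, against 896 and 721 CPM in MK1, a change of -1.14 (adjusted p = 9.08e-04). St14 and Spint2, a membrane protease and a protease inhibitor, fell by 0.56 and 0.54 (edgeR adjusted p = 0.0103 and 0.00786), calls that ended without MK1 replicate 1 for St14 (0.0984) and without MK1 replicate 2 for Spint2 (0.0710). Epcam, the usual surface marker of simple epithelium, was not called (164 CPM in MK2 and 245 CPM in MK1, adjusted p = 0.161), but passed as lower once MK2 replicate 2 was dropped (adjusted p = 1.05e-04) and with the crossed replicate block (0.00493).

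In the list of plakins and other keratin-binding proteins, no plakin or plakophilin rose, and the only rises were those of 14-3-3 genes. All 20 were tested: 2 rose, 7 fell and 11 were not called (median -0.14). Over all tested genes, 25.9% rose and 28.6% fell. Of the 7, 2, Eppk1 and Pof1b, fell by more than 2-fold in glmTreat. Dsp, which encodes desmoplakin, the anchor of keratin filaments at desmosomes, had 871 and 689 CPM in MK2, against 1443 and 1296 CPM in MK1, a change of -0.81 (edgeR adjusted p = 0.00330). The plakins Ppl and Evpl and the plakophilin Pkp2 changed by -0.81, -0.38 and -0.89 (edgeR adjusted p = 0.0145, 0.0438 and 0.00212). Plec, Dst and Pkp3 were not called. The fall of Pkp1, a desmosomal plakophilin, by 0.50 ended without MK1 replicate 1 (adjusted p = 0.122). The rises of the 14-3-3 genes Ywhae and Ywhaz, by 0.51 and 0.36, ended without MK1 replicate 1 (0.0600 and 0.198) or MK1 replicate 2 (0.0565 and 0.108), and that of Ywhaz also without MK2 replicate 2 (0.0550), with upper-quartile scaling (0.0518) and with the replicate block (0.0514). Pof1b, an actin-binding protein of epithelia, had 7.59 and 8.50 CPM in MK2, against 25.6 and 25.6 CPM in MK1, and fell by 1.67 (edgeR adjusted p = 2.08e-04). Chosen, like Pof1b, after its value was seen, Eppk1, an epiplakin that binds simple epithelial keratins, had 11.6 and 7.51 CPM in MK2, against 50.0 and 51.6 CPM in MK1, and fell by 2.41 (edgeR adjusted p = 1.99e-04).

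Cell types that carry simple keratins were checked by their other markers. In the Merkel cell list, the 12 genes other than members summed to 7.03 and 4.06 CPM in MK2 and to 9.54 and 21.0 CPM in MK1, and Atoh1, the factor that specifies Merkel cells, had 0 counts in all libraries. Of the 3 tested, 2 fell, Sox2 and Isl1, and the call of Sox2 ended on dropping MK1 replicate 2 (adjusted p = 0.204) or MK2 replicate 2 (0.0703) and with the replicate block (0.0757). In the mesothelial list Msln, which encodes mesothelin, had 64.2 and 61.7 CPM in MK2, against 1689 and 1375 CPM in MK1, and fell by 4.61 (edgeR adjusted p = 6.70e-06). Mesothelin is also made by other epithelia. The other mesothelial genes Lrrn4 and Gpm6a had 0 counts in all libraries, Wt1 had 1 count in all, and Upk3b stayed below 1 CPM. Of the 5 tested umbrella cell markers other than members, 2 fell and 3 were not called: Upk1b, a uroplakin, had 25.6 and 8.50 CPM in MK2, against 115 and 111 CPM in MK1, and Psca 29.5 and 16.8 CPM in MK2, against 93.6 and 78.1 CPM in MK1. Upk3a, another uroplakin, had 0 counts.

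Of 4 tested trophoblast genes other than members, 3 rose, and Hand1 and Cdx2 had 0 counts. Tead4, the most abundant, had 109 CPM in MK2 and 56.5 CPM in MK1. Ascl2 had 82 counts in MK2 and 3 in MK1, a level 29.2-fold higher in MK2 (95% counting interval 9.66 to 145). Dlx3 rose by 1.77 (edgeR adjusted p = 0.0441), a call that ended in DESeq2 (0.101), with the replicate block (0.0708) and on dropping either MK1 replicate 1 (0.233), MK1 replicate 2 (0.136) or MK2 replicate 1 (0.275). Of 2 tested sweat gland and mammary luminal genes other than members, 1 fell, Esr1, at 0.402 CPM in MK1. Of 8 tested bulge and hair follicle stem cell markers, 2 rose and 2 fell. Dkk3, a secreted Wnt-pathway protein, rose by 5.81 (edgeR adjusted p = 4.71e-05). The calls of Lrig1 and Tcf7l1 ended on dropping MK1 replicate 1 (adjusted p = 0.121 and 0.290), MK1 replicate 2 (0.201 and 0.0514) or MK2 replicate 2 (0.106 and 0.134), and that of Lrig1 also with the replicate block (0.0740). The call of Postn ended on dropping MK1 replicate 1 (0.0611) and in DESeq2 (0.0605).

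Markers of cells outside the epithelium were low, and some were lower in MK2 as the keratins were. All 8 tested of 15 leukocyte markers fell (median -7.50), beside 28.6% of all tested genes. The list summed to 2.58 and 3.42 CPM in MK2 and to 50.8 and 48.2 CPM in MK1, with the B-cell genes Cd79b and Ms4a1 at 0 in MK2. With so few counts in MK2, such genes could pass the count filter largely through MK1, which favours calls of a fall. Of 5 tested of 12 fibroblast markers, 4 fell (median -2.11), beside the same 28.6%. That list summed to 15.2 and 12.9 CPM in MK2 and to 62.2 and 78.0 CPM in MK1. Twist1, a mesenchymal transcription factor and the list's highest gene in MK1, had 1.23 and 1.199 CPM in MK2, against 32.1 and 40.6 CPM in MK1. The call of Pdgfra ended on dropping MK1 replicate 1 (adjusted p = 0.0742), and Dcn, Lum and Pdgfrb had 0 counts. Of the tested melanocyte markers 1 of 3 fell (Mitf), and of the endothelial ones 1 of 2 rose (Kdr, which missed the threshold on dropping MK1 replicate 2, with an adjusted p of 0.0652). The part of these cells in the keratin difference was not tested.

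**Figure D5:**
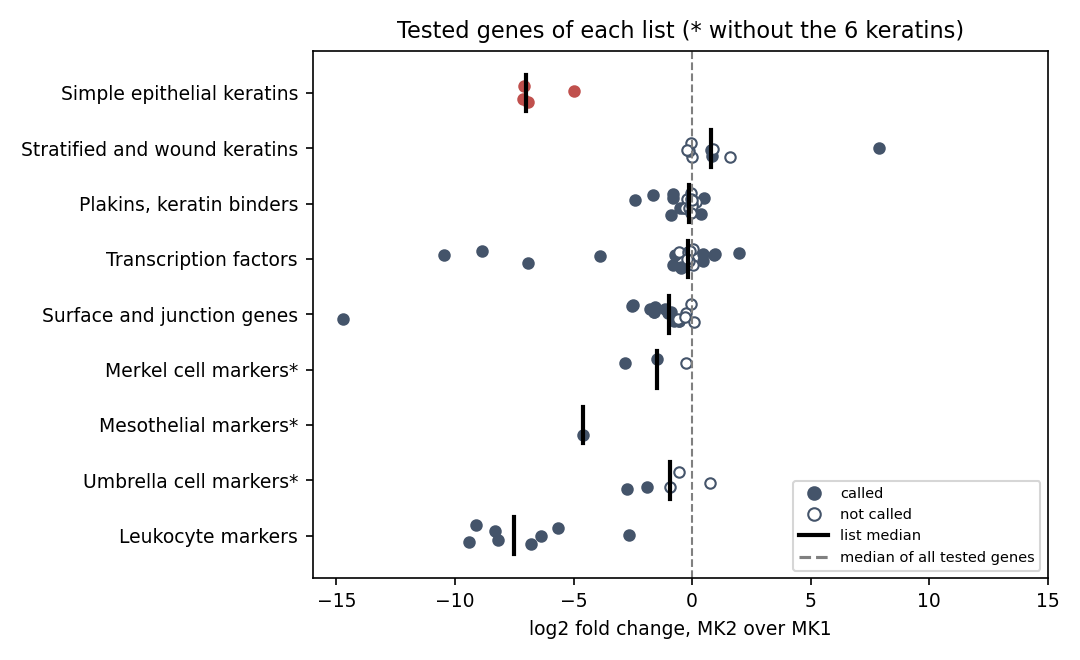
Log2 fold change of MK2 over MK1 for each tested gene of 9 lists, filled where called and open where not, with the list median as a black bar and the median of all tested genes dashed; lists with a star are shown without the 6 keratins. The simple epithelial keratins lie between -7.12 and -4.98 (median -7.01), apart from the keratin-binding proteins, whose median is -0.14. They do not stand apart from the leukocyte markers, whose median is -7.50. For a gene with 0 counts in MK2, the plotted size of the fall is a fitted value that depends on the prior count. One such gene is Cldn6, at 119 and 128 CPM in MK1.

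Among 9280 other tested genes at 10 CPM or more in a line, those nearest in pattern to the mean of Krt7, Krt8 and Krt18 (distance between centred log2 CPM profiles over the 4 libraries, prior count 2) were Ephx2, 0610007N19Rik, H2-Ab1, Phactr2, Pcdhga11, Zfp395, Sema5a, Col6a2, Plekha2 and Snx10. Their distances were 0.200 to 0.524. The 3 keratins were themselves 0.117 (Krt18), 0.146 (Krt8) and 0.244 (Krt7) from that mean, which they helped to set. Of the 10 genes, 0610007N19Rik, H2-Ab1, Pcdhga11 and Zfp395 had 0 counts in both MK2 libraries, so that the prior count set their MK2 level, and their likeness is not shown beyond it. Ephx2, an epoxide hydrolase, had 4 counts over both MK2 libraries, against 20.2 and 23.0 CPM in MK1. Sema5a had 1 and 0 counts in MK2 replicates 1 and 2, Plekha2 2 and 2, Col6a2 2 and 4, and Snx10 3 and 5. At counts this low, the prior count weighed on the MK2 levels of Ephx2 and these genes as well. The fitted changes of all 10 genes were more negative than those of the 3 keratins. They ran from -7.16 for Snx10 to -11.4 for Pcdhga11, with Sema5a, Plekha2 and Ephx2 at -9.15, -8.23 and -8.09. Phactr2, a regulator of phosphatase and actin, was the one with the highest level, at 0.357 CPM in MK2 and 66.0 CPM in MK1. It had 10 and 9 counts in MK2 replicates 1 and 2, where the prior count also weighed, and a fitted change of -7.52.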

How the data were processed

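The data are raw read counts per gene, deposited by the authors without normalization. Per the file headers, TopHat alignments to mm10 were counted over exons per gene with featureCounts 1.4.6-p4; the submitters' processing notes name DESeq2 1.10.1, featureCounts 1.5.0, Bowtie2 2.2.6 and TopHat2 2.0.13. The command in the header set no strand, pair or multi-mapping option. The header calls the second line's alignments MKU, and columns were matched by the names MK1 and MK2; 0 columns were left over. The gene lengths are the authors' deposited summed exon lengths. Names of 27 rows read as calendar dates and were not interpreted.

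The test of these counts used edgeR 4.0.16 (R 4.3.3): filterByExpr (minimum count 10), TMM, quasi-likelihood F test of MK2 against MK1, two-sided, Benjamini-Hochberg adjustment over all tested genes at 0.05, and glmTreat at a log2 change of 1. The alternative tool was DESeq2 1.42.0. The procedure was tested on simulated counts. Replicates differed by more than counting noise (median chi-square per gene 2.88 in MK1 and 4.28 in MK2), and each was kept. Errors are an SE of the log2 change worked back from the test, as the size of the change over the square root of its F statistic. Floors are 3 counts per library.

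Members, the 15 gene lists (189 symbols, 1 matched by a synonym) and the rules for naming genes were chosen with earlier results of these data known. The rules name the 6 members, other keratins at 1 TPM or more, up to 4 of the most abundant called genes of a list, the 3 expressed neighbours on each side, and the 10 genes nearest in pattern; all other genes named, among them defining markers and genes at 0 counts, were chosen after their values were seen. Genes whose reads may be shared with near-identical copies are uncertain. Promoter sequences came from RefSeq (GRCm38.p6, the same assembly as mm10) for 5 of the 6 members. Values of some genes of the lists are not reported here.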

Additional observations from a re-analysis of the deposited data

How the results depend on the processing

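The 4 tested members kept their calls and directions in all 12 alternatives. Without 1 library, the number of genes called ran from 3716 to 6847, against 6810 with all, with 3716 without MK1 replicate 1 and 4369 without MK1 replicate 2; beyond 2-fold it ran from 985 (without MK1 replicate 1) to 1717, against 1662. In these fits the lone library of a line is assumed to vary like the other line. The Krt18 to Krt8 log2 difference of 0.04 ran from -0.0160 (without MK1 replicate 1) to 0.0907, and so has no settled sign. The type I to type II log2 ratio over the members, 0.81 higher in MK2, was 0.95 without length and 0.97 with 5 counts added in place of 0.5. The members' share of keratin TPM, MK2 minus MK1, was -19.3 percentage points, -17.2 without length and -75.9 with Krt5 and Krt14 left out. Deviations of same-numbered libraries had a correlation of -0.15 across genes, so the numbers were not taken as pairs; the replicate block called 5908 genes, and the crossed replicate block, chosen after seeing the data, called 7454. Scaling moved the median of all genes by less than 0.1. Depth limits Krt19 and Krt23, and 4 libraries limit every ratio test.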

Other observations

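The 2 MK2 cultures differed from each other in some type I keratins of the cluster that holds Krt19, although they were alike for Krt8 and Krt18. Krt15, a keratin of basal and hair follicle stem cells, had 27.9 and 0.247 CPM in MK2 replicates 1 and 2, against 4.77 and 4.47 CPM in MK1. Its log2 change was 1.60 with all libraries (edgeR adjusted p = 0.330), -4.20 without MK2 replicate 1 (adjusted p = 1.12e-04) and 2.59 without MK2 replicate 2 (adjusted p = 1.47e-05). Krt32, a hair keratin, had 1.91 and 0.106 CPM in MK2, against 1.78 and 2.46 CPM in MK1, and passed as lower once MK2 replicate 1 was dropped (log2 change -4.26, edgeR adjusted p = 7.48e-04). Krt16, a wound keratin, had 69.1 and 134 CPM in MK2, against 132 and 92.8 CPM in MK1. Its log2 change was -0.15 with all libraries (edgeR adjusted p = 0.709) and 0.26 on dropping MK2 replicate 1 (0.282). It was -0.70 on dropping MK2 replicate 2 (edgeR adjusted p = 0.0186) and 0.13 on dropping MK1 replicate 1 (0.824). The cause was not tested.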
